A study of Homo sapiens with 24 samples.

Results

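The 10 genes of DNA replication licensing described here were MCM2, MCM3, MCM4, MCM5, MCM6, MCM7, MCM10, CDC6, CDT1 and GINS2, taken by gene symbol from a count table of 58721 genes. They were measured by 3′ RNA-seq, which primes cDNA at the poly-A tail and so counts transcripts by their last bases. The cells were RT112, a bladder cancer line of the luminal papillary subtype (LumP), and SCaBER, a line of the basal/squamous subtype (Ba/Sq). Each line received 6 siRNA treatments by lipid transfection, with 2 libraries per treatment and 24 libraries in all. The treatments were a control siRNA (siControl, number 2 in the labels), a first and a second siRNA against ZBED2 (siZBED2-1 and siZBED2-2), an siRNA against FOXA1 (siFOXA1), and siFOXA1 combined with either ZBED2 siRNA (double knock-down). Transfection was shared by all 12 groups, so untransfected cells were not part of any comparison. A single FOXA1 siRNA, number 1 in the labels, was used in all libraries with FOXA1 knock-down, so effects of that sequence on other transcripts and effects of losing FOXA1 cannot be told apart. Whether control siRNA was added to the single knock-downs to equal the siRNA dose of the double knock-downs is not given in the sources used here. In every comparison of a double with a single knock-down, and in the interaction, the dose and the added target therefore cannot be told apart. FOXA1, a forkhead protein, binds closed chromatin and maintains luminal identity in the urothelium. ZBED2 carries a BED-type zinc finger and is linked to basal keratinocyte programmes.

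A cell licenses an origin of replication in G1 by loading an inactive MCM2-7 helicase onto DNA. The origin recognition complex binds first, CDC6 joins it, and CDT1 brings the ring of the 6 MCM2 to MCM7 subunits, which is then loaded as a pair of rings head to head. Loading is blocked outside G1, in part because geminin (GMNN) binds CDT1 and because CDT1 is degraded in S phase. At the start of S phase the kinases CDC7-DBF4 and CDK2 turn the loaded ring into an active helicase by adding CDC45 and the 4-subunit GINS complex, to which GINS2 belongs, and MCM10 is needed for this helicase to start unwinding. MCM10 and GINS2 thus act at origin firing rather than at loading. Most of these genes are known targets of E2F transcription factors, are transcribed at the passage from G1 to S, and are low in cells that have left the cycle.

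The genes lie on separate chromosomes except for CDT1 and GINS2, which are both on chromosome 16. On GRCh38.p14, MCM2 spans chr3:127598411-127622436, MCM6 chr2:135839626-135876443, CDC6 chr17:40287879-40304657 and CDT1 chr16:88803789-88809258. RefSeq promoters of this build, which run from 250 bases before to 50 bases after an annotated start, were matched by symbol for 8 of the 10 genes, as 10 entries because MCM7 has 3 starts. MCM4 and MCM5 had no entry. The entries were searched on both strands, matches allowed to overlap, for 4 E2F words (TTTCCCGC, TTTGGCGC, TTTCGCGC and TTTGCCGC), because E2F factors bind such letters. At least 1 word was found in 7 of the 8 genes, all but MCM10. By entry, it was found in 7 of the 10 and in 3.31% of all 35116 promoter entries. The MCM10 promoter printed below holds TTTGGCGG, as do those of CDC6 and CDT1. It was not among the 4 words, and its share over all entries was not counted. Words that overlapped on opposite strands were each counted, as in the 2 pairs of MCM6. The CCAAT box (ATTGG or its reverse complement), which NF-Y binds, was in 6 of the 8 genes, all but MCM2 and CDT1. By entry, it was in 8 of the 10 and in 34.6% of all entries. A match describes letters in a window and shows no binding, and the genes were chosen for a process known to be under E2F control.

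The promoters below are those of a helicase subunit with its words just after the start (MCM2, chr3:127598161-127598460, + strand), the subunit with the most words (MCM6, chr2:135876394-135876693, - strand), both loaders (CDC6, chr17:40287629-40287928, + strand, and CDT1, chr16:88803539-88803838, + strand) and the gene without a word (MCM10, chr10:13161308-13161607, + strand). They are written 5′ to 3′ in the direction of transcription, and capitals mark the E2F words.
MCM2: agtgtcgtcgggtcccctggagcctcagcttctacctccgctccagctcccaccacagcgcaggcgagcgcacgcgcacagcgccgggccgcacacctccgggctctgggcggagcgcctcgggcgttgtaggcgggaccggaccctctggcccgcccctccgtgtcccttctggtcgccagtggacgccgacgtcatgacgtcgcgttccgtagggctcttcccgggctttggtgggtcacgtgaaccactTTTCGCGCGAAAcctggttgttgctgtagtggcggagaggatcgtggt
MCM6: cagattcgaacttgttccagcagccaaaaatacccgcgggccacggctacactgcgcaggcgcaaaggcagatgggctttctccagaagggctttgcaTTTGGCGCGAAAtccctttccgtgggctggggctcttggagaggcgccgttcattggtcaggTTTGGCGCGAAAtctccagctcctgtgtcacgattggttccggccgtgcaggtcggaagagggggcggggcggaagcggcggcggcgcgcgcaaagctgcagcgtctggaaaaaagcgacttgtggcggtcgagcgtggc
CDC6: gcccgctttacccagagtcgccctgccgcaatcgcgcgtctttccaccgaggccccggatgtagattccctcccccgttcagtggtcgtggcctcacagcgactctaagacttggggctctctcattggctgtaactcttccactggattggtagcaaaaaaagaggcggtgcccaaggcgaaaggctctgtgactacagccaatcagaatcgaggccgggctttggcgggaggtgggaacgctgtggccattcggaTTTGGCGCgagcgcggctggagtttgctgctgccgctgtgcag
CDT1: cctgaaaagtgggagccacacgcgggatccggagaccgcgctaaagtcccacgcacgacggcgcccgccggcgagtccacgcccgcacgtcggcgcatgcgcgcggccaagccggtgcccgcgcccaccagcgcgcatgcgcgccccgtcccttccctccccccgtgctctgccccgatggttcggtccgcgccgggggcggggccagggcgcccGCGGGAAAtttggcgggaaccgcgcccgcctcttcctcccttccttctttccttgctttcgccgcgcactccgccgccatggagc
MCM10: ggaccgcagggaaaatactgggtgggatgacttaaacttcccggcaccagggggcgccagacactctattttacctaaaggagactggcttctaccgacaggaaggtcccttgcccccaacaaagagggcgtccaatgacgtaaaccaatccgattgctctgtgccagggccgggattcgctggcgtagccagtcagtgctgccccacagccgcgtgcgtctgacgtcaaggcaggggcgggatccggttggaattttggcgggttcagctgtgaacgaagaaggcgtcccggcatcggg

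In MCM2 the words TTTCGCGC on either strand overlapped from base 3 to base 14 after the start. In MCM6 they stood at -152 to -141 and again at -90 to -79, with CCAAT boxes at -100 to -96 and -58 to -54. CDC6 had its word at 8 to 15 after the start, CDT1 at -35 to -28, and GINS2, shown in the map but not printed, at -31 to -24. E2F words lay within 50 bases of the start in 6 of the 7 genes that had any, MCM6 being the exception.

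**Figure D1:**
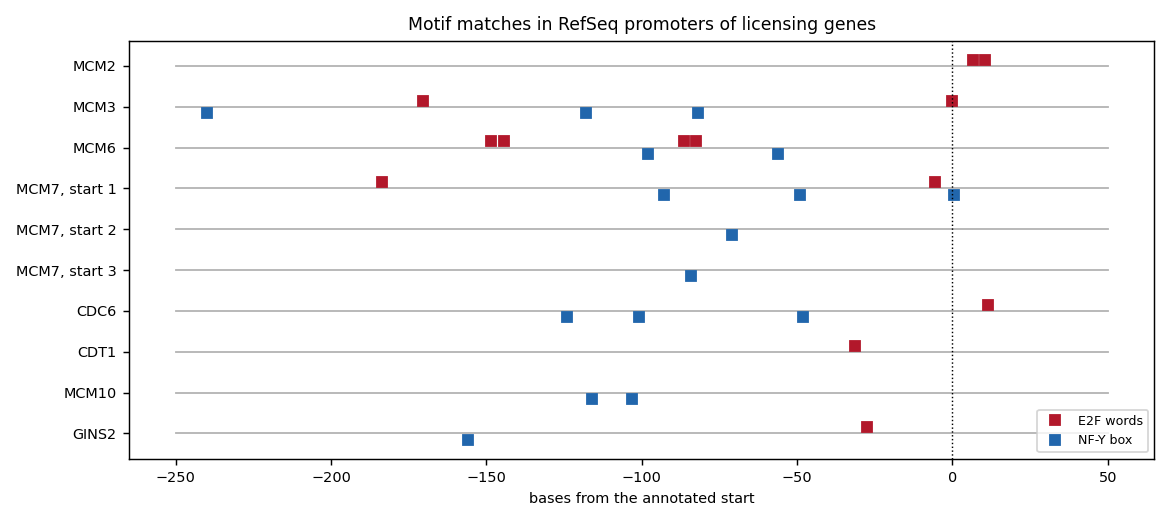
Positions of E2F words (red) and NF-Y boxes (blue) in the 10 RefSeq promoter entries of 8 licensing genes; the horizontal axis gives bases from the annotated start, marked by the dotted line, and each grey line is 1 entry. Red marks stand near the start in MCM2, MCM3, the first start of MCM7, CDC6, CDT1 and GINS2, farther upstream in MCM6, and none is seen for MCM10 or for the other 2 starts of MCM7.

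Libraries held between 4425404 and 6119210 counts, and the 10 genes together between 2144 and 9184 counts per library. The labels of the lines were checked against markers. RT112 libraries had 1282 to 3004 counts of the luminal factor GATA3, where SCaBER had 34 to 68, and SCaBER libraries had 3879 to 10171 counts of the basal keratin KRT6A, where RT112 had 1 to 151. Between the siControl groups, all 8 tested of 10 listed luminal markers were called higher in RT112, by the test described below. Of 10 basal markers, 7 were called lower in RT112, 1 was called higher and the rest did not pass. Changes of the basal markers ran from -10.8 to 6.77 on the log2 scale. Of 14 markers of stromal, endothelial and immune cells, COL3A1 and LYZ were at 0 in all 24 libraries, and 12 never passed 30 counts, PTPRC of leukocytes among them at 0 to 13. The other 2 were expressed, LUM at 322 to 929 counts in RT112 and 54 to 139 in SCaBER, and COL1A1 at 23 to 265 and 18 to 69. Of the 3 markers tested in RT112, siFOXA1 raised COL1A1 (23 and 24 counts under siControl, 198 and 196 under siFOXA1) and lowered LUM (510 and 855 against 336 and 322) and PECAM1 (26 and 10 against 0 and 0). In SCaBER the 3 tested markers (COL1A1, LUM and ACTA2) had changes of 0.93 to 1.18 that did not pass. Summed over the 14, RT112 had 544 to 641 counts in libraries with siFOXA1 and 559 to 985 without, and SCaBER 157 to 223 and 106 to 189; their part in the results was not tested. FOXA1 had 192 and 225 counts in RT112 under siControl and 34 and 44 under siFOXA1. In SCaBER it had 20 and 28 counts under siControl and 4 and 6 under siFOXA1, so the target was low in this line from the start. By the test described below, this fall of FOXA1 in SCaBER did not pass (log2 change -2.09 ± 1.23, adjusted p = 0.272). ZBED2 had 101 and 92 counts in RT112 under siControl, 12 and 0 under siZBED2-1 and 38 and 36 under siZBED2-2. In SCaBER these counts were 101 and 96, 12 and 40, and 48 and 100. ZBED2 was also low in RT112 under siFOXA1, at 27 and 7 counts, but not in SCaBER, at 100 and 84. The second ZBED2 siRNA thus left more ZBED2 reads than the first in each line, and its second SCaBER library stood at the level of siControl. A gene was called here when the Benjamini-Hochberg adjusted p of edgeR's quasi-likelihood test was under 0.05, over all genes tested in that line, 13264 in RT112 and 13129 in SCaBER. All 10 licensing genes passed the filter on low counts in both lines. Fold changes are on the log2 scale ± SE, and levels are CPM, counts scaled to a common library size after TMM normalisation.

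The starting levels were compared first, between the siControl groups of both lines. MCM10, the firing factor, was at 74.3 and 71.9 CPM in RT112 and at 46.1 and 43.3 in SCaBER. MCM4 was at 309 and 279 CPM in RT112 and at 539 and 456 in SCaBER, and MCM6 at 39.1 and 46.1 against 87.3 and 95.03. The libraries of the lines did not overlap for these 3 genes. RT112 was higher for MCM10 by 0.72 ± 0.28 (log2, adjusted p = 0.0439), and lower for MCM4 (-0.75 ± 0.15, adjusted p = 0.000157) and MCM6 (-1.08 ± 0.25, adjusted p = 0.000746). The other 7 genes did not pass the test, with differences from -0.34 (MCM7) to 0.16 (MCM5). With 33.6% of all 14823 genes called between the lines, 3 of 10 was close to the background. The MCM10 call was lost with the replicate number, an experiment batch in the labels, as a block, and with any of the 4 siControl libraries left out, each of which left 2 calls.

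**Figure D2:**
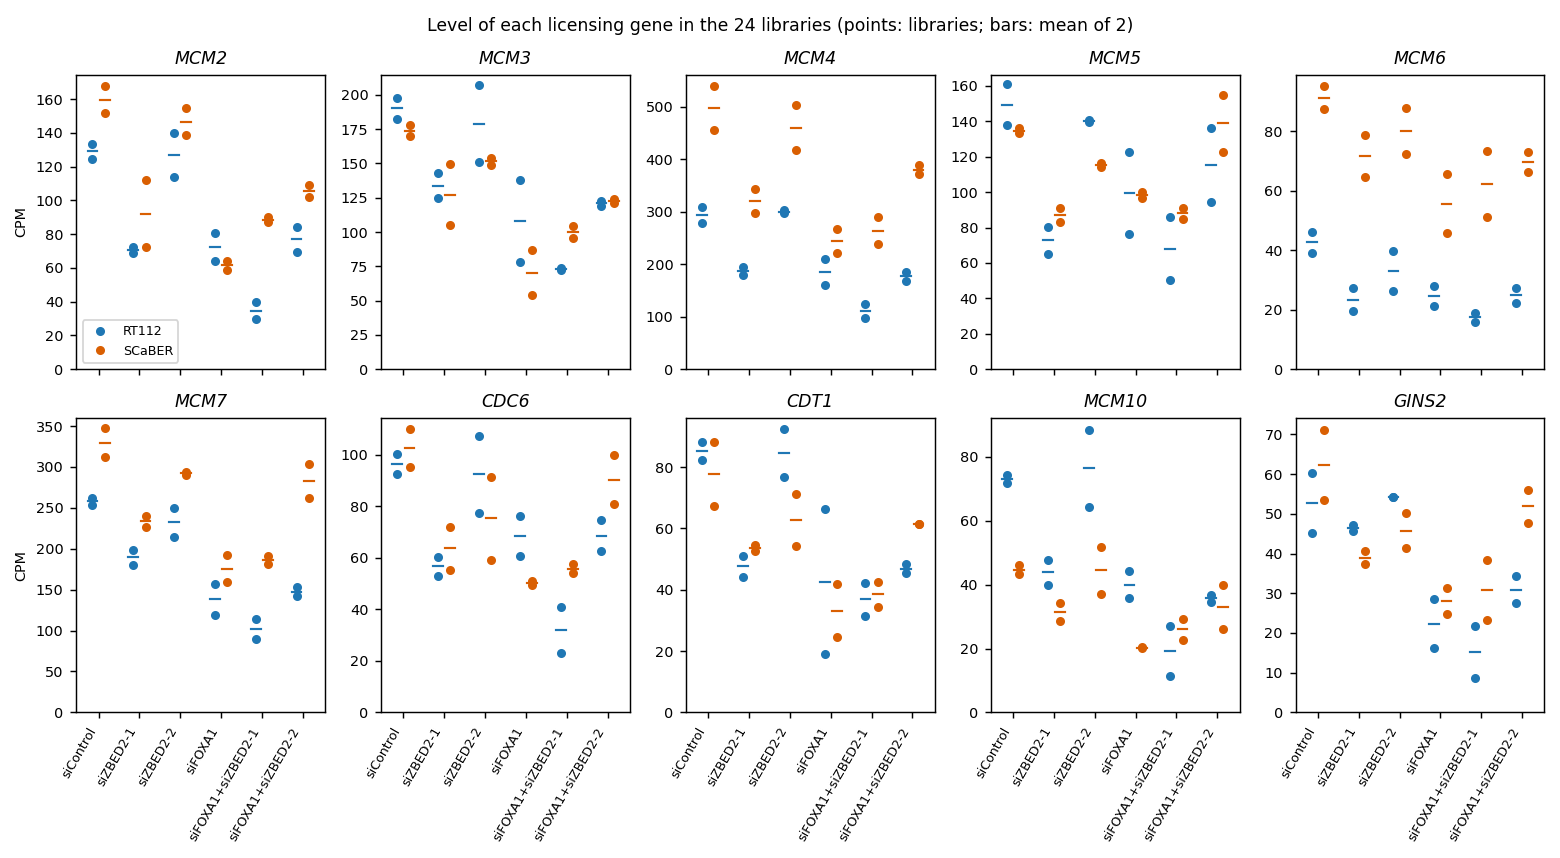
CPM of each licensing gene in the 24 libraries, with 1 panel per gene, the 6 siRNA treatments on the horizontal axis, RT112 in blue and SCaBER in orange; points are libraries and bars the mean of 2. MCM4 and MCM6 of SCaBER stand above those of RT112 under siControl, and the siFOXA1 points lie below the siControl points of the same line in every panel.

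In SCaBER, siFOXA1 lowered all 10 genes, by 0.45 to 1.38 on the log2 scale, with a median of -1.09. Over all genes 17.8% were called in this comparison, 9.12% as lower, and the median change was -0.02. MCM2, a helicase subunit that also binds histones, went from 152 and 168 CPM under siControl to 58.7 and 64.2 under siFOXA1. This was the largest fall of the 10, 2.6-fold (-1.38 ± 0.18, adjusted p = 3.818e-07). MCM3 went from 178 and 170 CPM to 86.7 and 54.0, and MCM4 from 539 and 456 to 266 and 221. Their changes were -1.30 ± 0.18 and -1.03 ± 0.13, and neither gene's groups overlapped. MCM7 fell from 347 and 312 CPM to 192 and 159 (-0.91 ± 0.13), MCM6 from 87.3 and 95.03 to 65.7 and 45.6 (-0.71 ± 0.20).

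MCM5, the subunit next to MCM2 at the gate of the ring, changed least. It went from 134 and 136 CPM to 99.9 and 96.6 (-0.45 ± 0.16, adjusted p = 0.0393), a gap wider than the spread within either pair. Its call was lost with any of the 4 libraries of the comparison left out and with no filter on low counts, which leaves 9 genes called, and the MCM6 call was lost without replicate 2 of either group, which leaves 8.

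Both loaders fell too. CDC6, the ATPase that joins the origin recognition complex, went from 110 and 95.2 CPM to 49.4 and 51.0 (-1.03 ± 0.20, adjusted p = 0.000262). CDT1, which carries MCM2-7 to the origin, went from 88.2 and 67.3 CPM to 41.8 and 24.5 (-1.22 ± 0.23, adjusted p = 0.000158). Neither pair overlapped. The firing factors also fell, MCM10 going from 46.1 and 43.3 CPM to 20.2 and 20.4 (-1.14 ± 0.27, adjusted p = 0.00205) and GINS2 from 53.4 and 71.1 to 31.4 and 24.7 (-1.15 ± 0.25, adjusted p = 0.000821). The mitochondrial share of counts was 12.93% and 12.52% under siFOXA1, the highest of the 12 SCaBER libraries, and 9.735% and 10.74% under siControl; its part in these changes was not tested. In a bulk library, fewer cells in S phase and less of each transcript per cell cannot be told apart.

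In RT112, siFOXA1 lowered 7 of the 10 genes, with a median over all 10 of -0.83, but replicate 2 carried most of these calls. Of all genes 23.3% were called, 11.9% as lower, with a median change of -0.02. GINS2, a GINS subunit of the active helicase, had the largest change (-1.23 ± 0.33, adjusted p = 0.00672) and went from 45.05 and 60.2 CPM to 28.6 and 16.1. MCM7 went from 254 and 262 CPM to 158 and 118 (-0.90 ± 0.16, adjusted p = 0.000199), and MCM2 from 125 and 134 to 80.7 and 64.1 (-0.84 ± 0.19, adjusted p = 0.00238). No library with siFOXA1 reached its siControl pair for these 3 genes. MCM3 fell by 0.82, MCM4 by 0.66, CDT1 by 0.99 and MCM10 by 0.87 on the log2 scale. CDC6 (-0.49 ± 0.23, adjusted p = 0.129), MCM5 (-0.58 ± 0.23, adjusted p = 0.0677) and MCM6 (-0.79 ± 0.30, adjusted p = 0.0599) did not pass, although their libraries did not overlap either. MCM5 passed with the replicate block (8 calls).

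The siFOXA1 libraries of RT112 stood apart from each other. CDT1 was at 66.4 CPM in replicate 1 and 18.9 in replicate 2, against 82.2 and 88.3 under siControl, and MCM3 at 138 and 78.0 against 182 and 198. Averaged over the 10 genes, replicate 1 lay 0.55 and replicate 2 lay 1.18 below the siControl mean on the log2 scale. The SCaBER libraries lay 0.91 and 1.18 below theirs. When replicate 2 of RT112 siFOXA1 was left out, 1 gene (MCM7) was still called and the median change was -0.54, while all 10 differences stayed below 0. With replicate 1 left out instead, the count was 8 and the median -1.02. Leaving out replicate 2 of siControl gave 4 calls. Mitochondrial transcripts took 18.6% to 22.7% of the counts in the 6 RT112 libraries with siFOXA1 and 8.215% to 17.8% in the 6 without, and 9.295% to 12.9% against 9.55% to 12.0% in SCaBER; their part in the RT112 result was not tested.

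A difference between the lines in the change with siFOXA1 was not detectable. None of the 10 genes was called in the test of the difference by edgeR, where 2.58% of all genes were, and 0 genes had an unadjusted p under 0.05. DESeq2 and limma also called 0. The differences, RT112 minus SCaBER, ran from -0.13 ± 0.30 (MCM5) to 0.54 ± 0.27 (MCM2, adjusted p = 0.34), and MCM7 was at 0.00 ± 0.21. The SEs were 0.21 to 0.44. The FOXA1 counts behind the comparison were unequal, as given above.

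**Figure D3:**
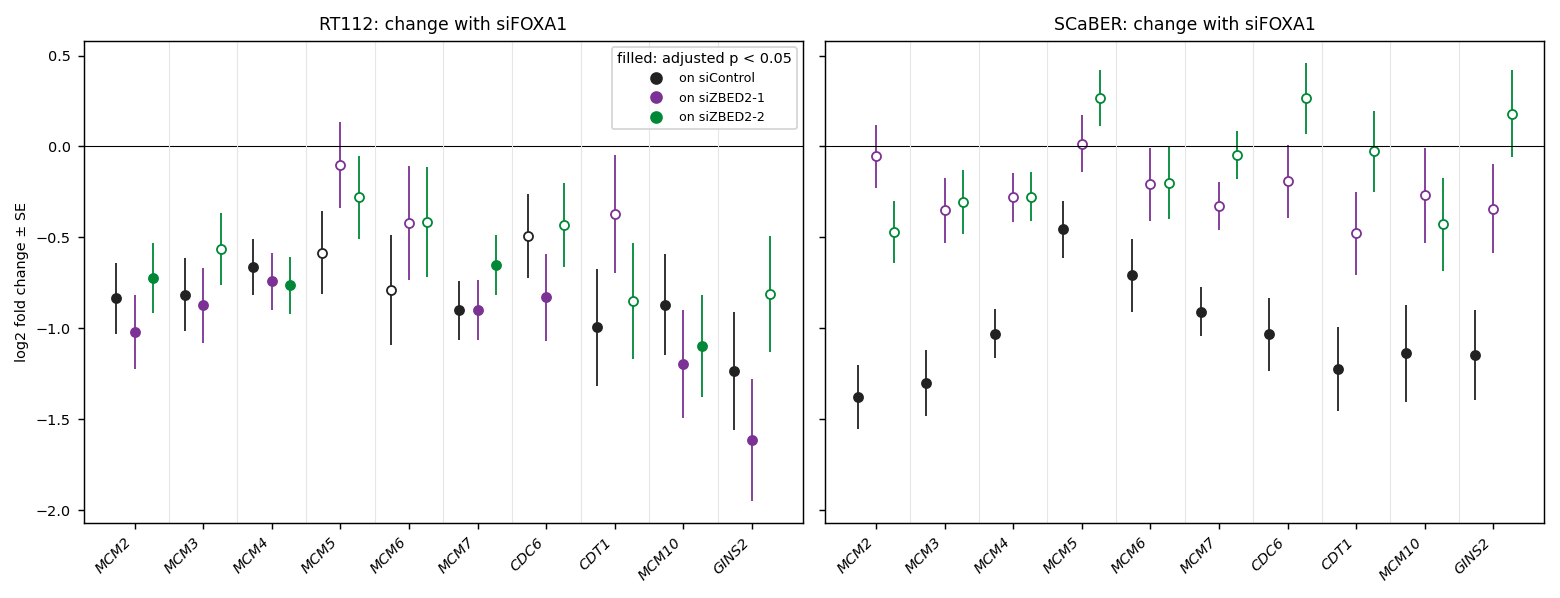
Log2 fold change ± SE with siFOXA1 of each licensing gene in RT112 (left) and SCaBER (right), measured on siControl (black), on siZBED2-1 (purple) and on siZBED2-2 (green); filled points have an adjusted p under 0.05. All black points are below 0 in both lines; purple and green points of SCaBER are open and nearer to 0, while in RT112 7 purple and 4 green points are filled.

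The ZBED2 siRNAs gave unequal results. In RT112, siZBED2-1 lowered MCM2, MCM4, MCM5 and CDC6, and no gene was higher, where 8.8% of all genes were called and 4.45% as lower. MCM5 changed most (-1.03 ± 0.23, adjusted p = 0.00476), from 161 and 138 CPM to 80.3 and 65.3. MCM2 went from 125 and 134 CPM to 72.2 and 68.8 (-0.87 ± 0.19, adjusted p = 0.00434). Both genes' libraries were well separated. GINS2 was the least changed, at 45.6 and 47.1 CPM against 45.05 and 60.2 (-0.18 ± 0.31, adjusted p = 0.82). With the replicate block MCM6, MCM7 and CDT1 passed as well, which made 7 calls. A single call (MCM2) was left when replicate 2 of siZBED2-1 was omitted, and 2 (MCM2 and MCM5) without replicate 1 of siControl.

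In SCaBER, siZBED2-1 lowered MCM2, MCM4, MCM5, MCM7 and CDC6, where 4.65% of all genes were called. MCM2 went from 152 and 168 CPM to 112 and 72.3 (-0.80 ± 0.17, adjusted p = 0.00325), and MCM4 from 539 and 456 to 344 and 297 (-0.64 ± 0.13, adjusted p = 0.00247). The siZBED2-1 libraries of MCM2 were far apart but both below siControl. The other 5 genes had changes of -0.35 (MCM6) to -0.68 (GINS2) that did not pass. With replicate 2 of siZBED2-1 left out, in which ZBED2 had 40 counts, 0 genes were called, and without replicate 1, in which it had 12, 3 were. Omitting replicate 1 of siControl left 1 call (MCM2), and omitting its replicate 2 left 3.

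Under siZBED2-2 none of the 10 genes was called in either line by edgeR, DESeq2 or limma, where 0.166% of all genes were called in RT112 and 0.625% in SCaBER. These shares are those of edgeR. Because limma called only 6 genes in all in each line, its 0 adds little. In RT112 0 genes and in SCaBER 1 gene (CDC6, -0.45 ± 0.20) had an unadjusted p under 0.05. RT112 changes ran from -0.37 (MCM6) to 0.07 (MCM10). MCM2, for example, stood at 114 and 140 CPM against 125 and 134, and MCM4 at 298 and 303 against 309 and 279. The groups overlapped for both genes. SCaBER changes ran from -0.45 (CDC6) to -0.01 (MCM10), 10 of 10 below 0.

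The ZBED2 siRNAs were also compared with each other. With 7.77% of all genes called in RT112, MCM2 (-0.85 ± 0.19), MCM4 (-0.69 ± 0.16) and MCM5 (-0.94 ± 0.23) were lower under siZBED2-1 than under siZBED2-2, with adjusted p of 0.00658, 0.0056 and 0.0112. MCM10, CDC6 and CDT1 passed too with the replicate block, for 6 calls. With 4.01% called in SCaBER, MCM2 (-0.67 ± 0.17) and MCM4 (-0.52 ± 0.13) were lower, with adjusted p of 0.0172 and 0.0176. These calls were lost in both lines, with 0 genes called, when replicate 2 of siZBED2-1 was left out, and in SCaBER 1 was left without either library of siZBED2-2. ZBED2 itself was lower under siZBED2-1, as given above, and whether its level or the sequence of the siRNA moved these genes cannot be told apart.

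**Figure D4:**
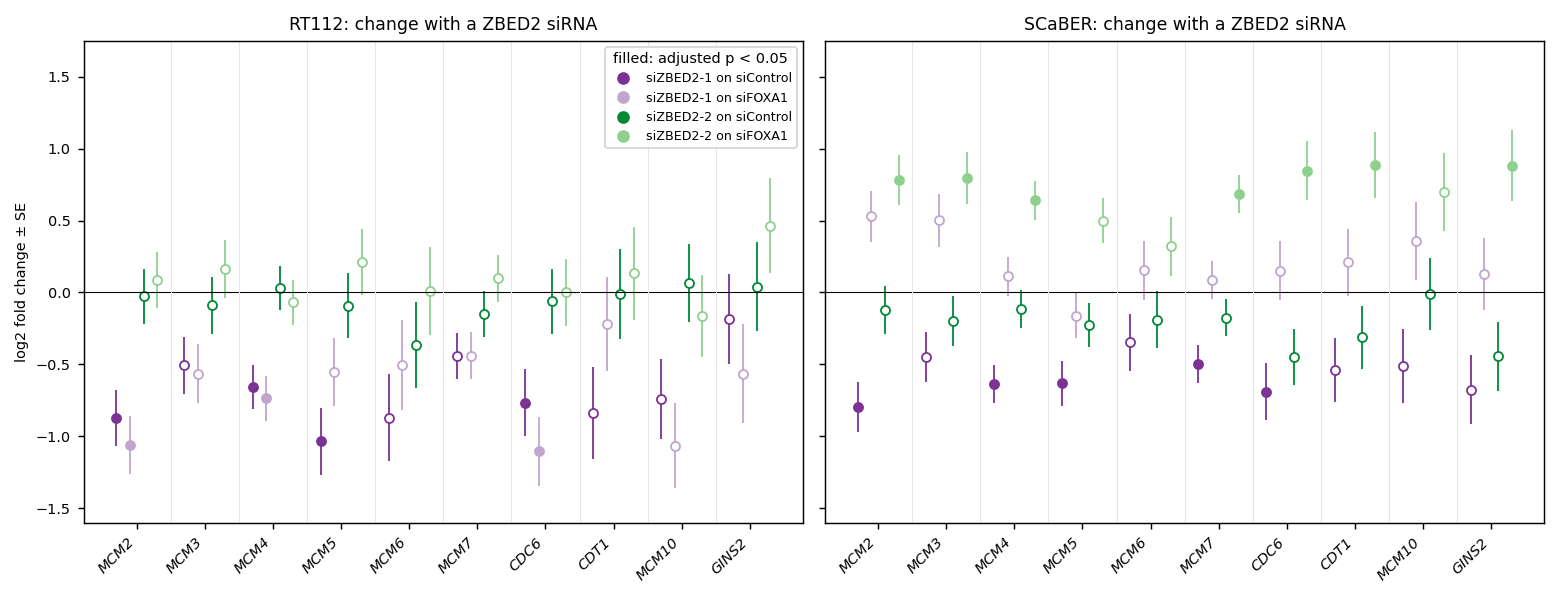
Log2 fold change ± SE with each ZBED2 siRNA in RT112 (left) and SCaBER (right), for siZBED2-1 on siControl (dark purple) and on siFOXA1 (light purple) and for siZBED2-2 on siControl (dark green) and on siFOXA1 (light green); filled points have an adjusted p under 0.05. Dark and light purple points lie at or below 0 in RT112, and in SCaBER the light green points lie above 0, 7 of them filled.

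In SCaBER, none of the 10 genes was called when siFOXA1 was added to either ZBED2 siRNA, whereas all 10 were on siControl. Against siZBED2-1 alone (5.78% of all genes called) the differences ran from -0.48 (CDT1) to 0.02 (MCM5), and against siZBED2-2 alone (3.03% called) from -0.47 (MCM2) to 0.27 (MCM5). At an unadjusted p under 0.05 the counts were 3 and 2 genes, and DESeq2 and limma called 0 in both. MCM2 stood at 87.3 and 89.9 CPM under siFOXA1 with siZBED2-1, against 112 and 72.3 under siZBED2-1, and at 102 and 109 under siFOXA1 with siZBED2-2, against 139 and 155 under siZBED2-2. The former groups overlapped and the latter did not.

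Set against siFOXA1 alone, the licensing genes of SCaBER were higher when siZBED2-2 was added, in 7 of 10 genes, where 3.66% of all genes were called and 2.25% as higher. The median over the 10 was 0.74, and whether the dose of siRNA was equal is not known, as given above. CDC6 rose from 49.4 and 51.0 CPM to 99.8 and 80.8 (0.85 ± 0.20, adjusted p = 0.0102), 1.8-fold. MCM7 rose from 192 and 159 CPM to 304 and 262 (0.69 ± 0.13, adjusted p = 0.00127), and CDT1 from 41.8 and 24.5 to 61.5 and 61.4 (0.88 ± 0.23, adjusted p = 0.023). These groups were clear of each other. MCM2, MCM3, MCM4 and GINS2 also rose, by 0.64 (MCM4) to 0.88 (GINS2), while MCM5 (0.50 ± 0.16, adjusted p = 0.0723), MCM10 (0.70 ± 0.27, adjusted p = 0.176) and MCM6 (0.32 ± 0.20, adjusted p = 0.503) did not pass. MCM5 passed with the replicate block (8 calls). Averaged over the 10 genes, both libraries of siFOXA1 with siZBED2-2 lay 0.33 below the siControl mean on the log2 scale, where siFOXA1 alone lay 0.91 and 1.18 below. The mitochondrial share was 11.46% and 9.295% in this double knock-down. ZBED2 had 49 and 57 counts in this double knock-down and 100 and 84 under siFOXA1 alone. After replicate 2 of siFOXA1 was left out, 2 genes (MCM2 and CDC6) remained called and the median was 0.56. Omitting replicate 1 of the double knock-down left 4 calls, and omitting its replicate 2 left 5.

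When siZBED2-1 was added to siFOXA1 in SCaBER, none of the 10 genes was called, where 2.73% of all genes were. The differences ran from -0.16 (MCM5) to 0.53 ± 0.18 (MCM2, adjusted p = 0.117), 2 genes had an unadjusted p under 0.05, and DESeq2 and limma called 0. The libraries of this double knock-down lay 0.91 and 0.75 below the siControl mean. A single gene, MCM3, was called when replicate 1 of siFOXA1 was left out. Its FOXA1 counts were 0 and 1, those of siFOXA1 with siZBED2-2 3 and 2, and those of siZBED2-1 alone 14 and 1, against 20 and 28 under siControl. FOXA1 was thus at or under 3 counts, the most that a count of 0 allows, in all 4 double knock-down libraries and in replicate 2 of siZBED2-1, but not in its replicate 1.

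The interaction tested whether the change with siFOXA1 differed between cells with a ZBED2 siRNA (mean of both) and cells with siControl, with the same limit on siRNA dose. In SCaBER it was above 0 for all 10 genes, with a median of 0.88, and 5 were called, where 2.29% of all genes were called and 1.07% above 0. MCM2 led (1.11 ± 0.21, adjusted p = 0.00201), followed by CDC6 (1.07 ± 0.25, adjusted p = 0.0102), MCM3 (0.97 ± 0.22, adjusted p = 0.00932), MCM4 (0.75 ± 0.16, adjusted p = 0.00743) and MCM7 (0.72 ± 0.16, adjusted p = 0.00882). CDT1 (0.97 ± 0.28, adjusted p = 0.0563) and GINS2 (1.07 ± 0.30, adjusted p = 0.05004) missed the threshold and passed it with the replicate block, for 7 calls. DESeq2 called 8 genes and limma on TPM 0. Over all genes the block called 508 and limma 19, against 300 in the main fit. Leaving out replicate 2 of siFOXA1 gave 2 calls (MCM2 and CDC6), and leaving out replicate 1 of siControl gave 3 (MCM2, MCM3 and GINS2). The interaction and the 3 changes with siFOXA1 share their siControl, siFOXA1 and ZBED2 siRNA libraries, so they are not independent of each other.

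In RT112 the changes with siFOXA1 were also seen on the ZBED2 siRNAs. Against siZBED2-1 alone 7 of 10 genes were lower, where 10.3% of all genes were called and 5.41% as lower, and against siZBED2-2 alone 4 were (MCM2, MCM4, MCM7 and MCM10), where 8.78% were called. FOXA1 itself changed by -2.73 ± 0.39 on siZBED2-1 and -1.65 ± 0.37 on siZBED2-2, against -2.36 ± 0.38 on siControl. The part of this in the counts of calls was not tested. GINS2 fell from 45.6 and 47.1 CPM under siZBED2-1 to 21.7 and 8.70 with siFOXA1 added (-1.61 ± 0.34, adjusted p = 0.00231), the largest change of any licensing gene in this series of comparisons. MCM10 fell from 39.9 and 47.8 CPM to 26.98 and 11.3 (-1.20 ± 0.30, adjusted p = 0.00906) and, on siZBED2-2, from 64.4 and 88.4 to 36.8 and 34.6 (-1.10 ± 0.28, adjusted p = 0.0139). None of these groups overlapped. MCM5, MCM6 and CDT1 were called in neither, MCM5 with differences of -0.10 and -0.28. With the replicate block MCM3 and CDT1 also passed on siZBED2-2, for 6 calls. Of the 7 calls 3 were left without replicate 2 of siFOXA1 with siZBED2-1 and 4 without replicate 2 of siZBED2-1, and of the 4 calls 1 (MCM4) was left without replicate 2 of siFOXA1 with siZBED2-2.

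Set against siFOXA1 alone, siZBED2-1 lowered MCM2 (-1.06 ± 0.20, adjusted p = 0.00402), MCM4 (-0.74 ± 0.16, adjusted p = 0.00981) and CDC6 (-1.10 ± 0.24, adjusted p = 0.0108) further in RT112, where 2.55% of all genes were called. MCM2 went from 80.7 and 64.1 CPM to 39.9 and 29.5, the lowest of its 12 groups over both lines. ZBED2 was already low under siFOXA1 alone, at 27 and 7 counts. It had 9 and 7 counts with siZBED2-1 added and 12 and 4 with siZBED2-2 added. The part of the ZBED2 level in these differences was not tested. MCM10 passed with the replicate block (4 calls), and with replicate 2 of the double knock-down left out 0 genes were called. Omitting its replicate 1 gave 5 calls, and omitting replicate 1 of siFOXA1 gave 1 (MCM2). Adding siZBED2-2 gave no call, where 1.25% of all genes were called, with differences from -0.16 (MCM10) to 0.46 (GINS2), 0 genes at an unadjusted p under 0.05, and 0 by DESeq2 and limma. The interaction in RT112 was called for none of the 10 genes, where 0.611% of all genes were called. It ran from -0.28 (MCM10) to 0.39 (MCM5), again with 0 genes at an unadjusted p under 0.05 and 0 by DESeq2 and limma. Over all genes, limma called only 4 when siZBED2-2 was added and 3 for the interaction, so its 0 adds little. In both of these comparisons CDT1 was called when replicate 1 of siFOXA1, its high library, was left out. The direction of the RT112 interaction rested on the siFOXA1 libraries, its median over the 10 genes being 0.06 with all libraries, 0.419 without replicate 1 and -0.255 without replicate 2, when 8 of 10 genes were below 0.

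The difference between the interactions of both lines was tested after the values above were seen. Under siFOXA1 alone ZBED2 had 27 and 7 counts in RT112 and 100 and 84 in SCaBER. The interactions of the lines therefore did not compare like levels of ZBED2. None of the 10 genes was called, where 2 of 14823 genes (0.0135%) were. All 10 differences (RT112 minus SCaBER) were below 0, from -0.12 (MCM6) to -1.20 ± 0.40 (CDC6, adjusted p = 0.534), MCM2 was at -1.14 ± 0.33 (adjusted p = 0.399), 6 genes had an unadjusted p under 0.05, and DESeq2 and limma called 0. A difference of the interaction between the lines was therefore not shown.

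The 10 genes kept close to each other across the groups. Over the 12 group means, centred within each line, the correlation of a gene with the mean of the other 9 was between 0.817 (MCM5) and 0.985 (MCM4), given as a description of groups that share libraries and depth. By the same measure the genes outside the 10 that followed their mean most closely among 11763 genes were CDCA3 (r = 0.99), a trigger of mitotic entry, BRCA1 (r = 0.987), a DNA repair factor, HMGB2 (r = 0.986), a chromatin protein, KIF20B (r = 0.986), a mitotic kinesin, and FEN1 (r = 0.98), the nuclease of Okazaki fragments. MCM5 departed most from its partners in the ring. Its level relative to the mean of the other 5 subunits (log2) lay between -0.84 and -0.60 in the 6 SCaBER libraries without siFOXA1 and between -0.61 and 0.12 in the 6 with it, so the ranges only just overlapped. In RT112 these ranges were -0.57 to 0.13 and -0.04 to 0.58, which overlapped more. This ratio was singled out after its values were seen and was not tested.

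Other genes of the pathway moved less evenly than the 10. Of the 6 subunits of the origin recognition complex, which is present throughout the cycle apart from ORC1 and recruits the loaders, siFOXA1 lowered ORC1 (-1.45 ± 0.50) and ORC6 (-1.17 ± 0.22) in SCaBER. In RT112 it lowered ORC6 (-1.86 ± 0.30) and raised ORC2 (0.82 ± 0.28). These were 2 of 6 in each line, where 17.8% of all genes were called in SCaBER and 23.3% in RT112. ORC2 was at 0.71 ± 0.27 in SCaBER and ORC1 at -0.76 ± 0.58 in RT112, neither called. For 0 of the 6 subunits was the change with siFOXA1 called as different between the lines. The list medians were -0.38 and -0.50. Of 10 regulators of licensing, 4 were lower in SCaBER and 5 in RT112, and none was higher. GMNN, which blocks CDT1, fell by 0.58 in SCaBER and 1.06 in RT112, FBXO5, an inhibitor of the anaphase-promoting complex, by 1.94 and 2.64, SKP2 and DTL, which direct CDT1 or its partners to degradation, by 1.79 and 0.86 in SCaBER and by 1.21 and 1.41 in RT112. CDC7 was not called in either line (-0.35 ± 0.55 and -0.20 ± 0.50), while its partner DBF4 fell by 1.43 in RT112 and was at -0.21 ± 0.20, not called, in SCaBER.

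Of 10 further genes of helicase activation, 5 were lower in each line. CDC45, which travels with the ring, fell by 0.98 in SCaBER and 1.70 in RT112, and TICRR, which brings it to the origin, by 2.04 and 2.24. MCM8, an MCM protein of recombination, was at -0.38 ± 0.19 (not called) in SCaBER and fell by 0.68 in RT112, and its partner MCM9 was not called in either line. Of 26 genes of the replication fork, 11 were lower in SCaBER and 9 in RT112, where 1 was higher, with medians of -0.92 and -0.80.

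The lists outside replication set the scale. Of 19 tested E2F targets of G1/S, such as those for nucleotide synthesis, 14 were lower in SCaBER and 15 in RT112 with siFOXA1, with medians of -1.18 and -1.12. Of 20 mitotic genes, 20 and 19 were lower, with medians of -1.29 and -1.85, so the medians of both lists were below those of the licensing genes, -1.09 and -0.83, in both lines. Of 14 constitutive genes, 3 were higher and 3 lower in SCaBER, 2 and 2 in RT112, with medians of -0.19 and -0.11. When siZBED2-2 was added to siFOXA1 in SCaBER, 18 of the 20 mitotic genes and 7 of the 19 G1/S targets were higher beside the 7 licensing genes, with medians of 0.95 and 0.55. GMNN (0.65 ± 0.17), FBXO5 (1.36 ± 0.30), ORC6 (0.82 ± 0.22) and TOPBP1 (0.69 ± 0.16), an activator of firing, were among the higher genes. Under siZBED2-1 alone, 2 of the 19 G1/S targets and 9 of the 20 mitotic genes were lower in RT112, and 8 and 4 in SCaBER. Under siZBED2-2 alone the medians of both lists lay between -0.19 and -0.07 in both lines.

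**Figure D5:**
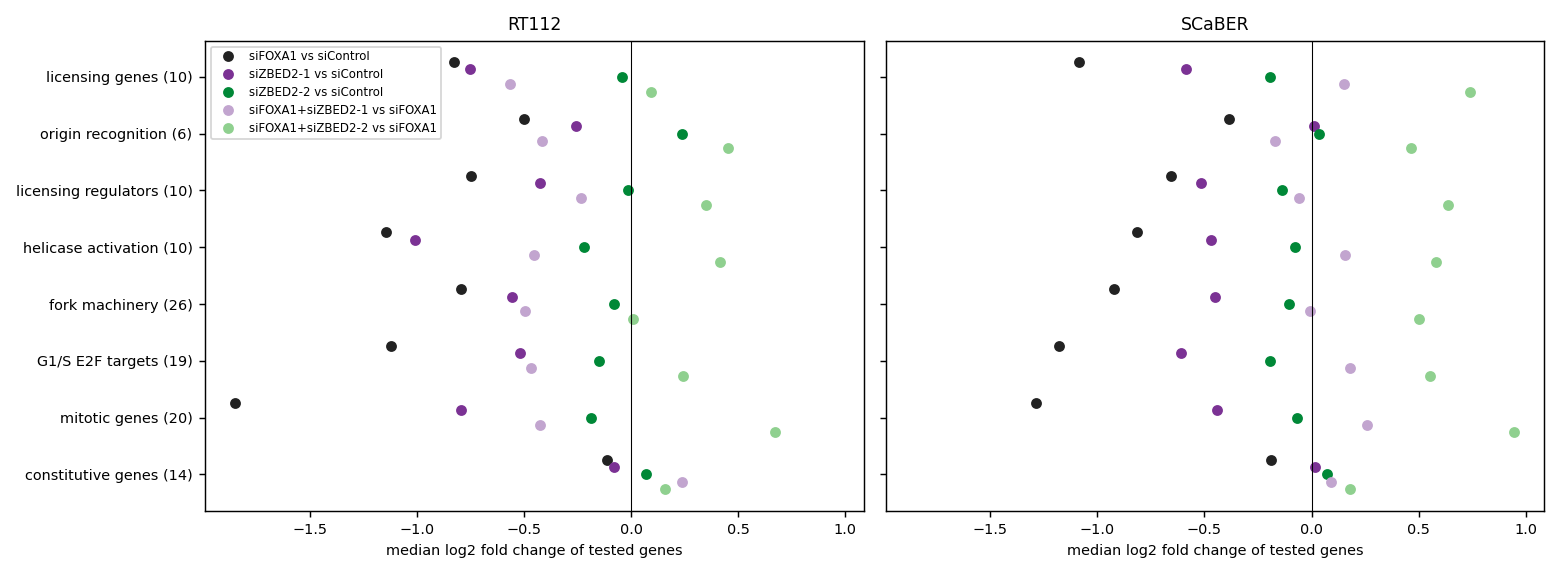
Median log2 fold change of 8 gene lists in RT112 (left) and SCaBER (right), with the number of tested genes in brackets, for siFOXA1 (black), siZBED2-1 (dark purple) and siZBED2-2 (dark green) against siControl and for the double knock-downs with siZBED2-1 (light purple) and siZBED2-2 (light green) against siFOXA1. The 14 constitutive genes stay between -0.19 and 0.24, and the medians of the other 7 lists drawn are lowest for siFOXA1 in both lines, down to -1.85 for the mitotic genes of RT112.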

How the data were processed

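RNA was measured by 3′ RNA-seq (QuantSeq FWD) in 24 libraries. The authors deposited raw counts, whole numbers of reads per gene, and TPM values (scaled for gene length and library total). By the pipeline settings they deposited, reads were trimmed with TrimGalore 0.6.2 (minimum quality 20, minimum length 10), passed through raw-qc 2.1.0, and aligned and counted with STAR 2.6.1a on hg38 and GENCODE release 29. The methods of the study name hg19, but hg38 is the build per the labels. No molecular identifiers were stated, so PCR copies are not separate molecules, and a count of 0 allows 3 counts by counting error only. Dividing by length does not suit 3′ reads, so the main tests used the counts.

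Groups were taken from the labels, and 0 columns were left unused. Each line was fitted on its own (12 libraries, 6 group means) in edgeR 4.0.16 (R 4.3.3; glmQLFit and glmQLFTest, TMM factors, filterByExpr with minimum count 10 and minimum total 15), and all 24 a joint fit for differences between the lines. edgeR put biological variation (BCV) at 25.8% for RT112 and at 21.6% for SCaBER. SE is the log2 fold change divided by the square root of F. On simulated counts with 100 genes changed 4-fold (2 on the log2 scale) the SCaBER comparison of siFOXA1 with siControl called 86%, and the RT112 one 77%. At a log2 change of 1 the shares were 19% and 5%. All genes, at all levels, were simulated with the common BCV of their line, and far fewer genes were changed than the data called. The shares are therefore not the power of the test in the data. Whether these shares hold for the licensing genes was not tested. With siFOXA1 against siControl, 10 of the 10 were called in SCaBER and 7 in RT112. Their median log2 changes, over all 10, were -1.09 and -0.83.

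Replicate numbers are given as experiment batches, which pairs equal numbers. Deviations from group means correlated weakly between equal numbers (mean 0.0336 in RT112 and 0.0259 in SCaBER, 0 of 15 pairs of groups over 0.1 in each line). Nothing states separate cultures, so p-values measure the spread between these libraries. Replicates differed by more than counting noise in all 12 groups. Alternatives were RLE factors, library size alone, no filter on low counts, DESeq2 1.42.0, the replicate block, limma 3.58.1 on log2(TPM + 1) of genes with at least 1 TPM in 2 libraries, and each library left out in turn. A lone remaining library is then assumed to vary like the other groups. The difference of the interactions between lines was added after values were seen.

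The 10 genes and the other lists were chosen with earlier results of these data known. All 10 are named, with targeted genes, genes of origin recognition, regulation and firing, and the 5 genes closest to the mean of the 10. Promoters and coordinates (1-based) are from RefSeq on GRCh38.p14. How reads shared with pseudogenes or paralogs were counted is not given in the sources used here.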

Additional observations from a re-analysis of the deposited data

Results flagged for a closer look

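In SCaBER the change with siFOXA1 differed between cells with a ZBED2 siRNA (mean of both) and cells with siControl for 5 licensing genes, by the interaction test of edgeR. The interaction was 1.11 for MCM2, 0.97 for MCM3, 0.75 for MCM4, 0.72 for MCM7 and 1.07 for CDC6 on the log2 scale, all in the direction of a smaller fall on the ZBED2 siRNAs. Over all genes 2.29% (300) were called in this test by edgeR, and 19 by limma on TPM. DESeq2 called 8 of the 10 genes, limma on TPM called 0, and leaving out single libraries gave 2 to 7. Whether the siRNA dose was equal is not given. In RT112 the same test called none of the 10 genes, and the difference between the lines was not called either. ZBED2 was already low in RT112 under siFOXA1 alone, at 27 and 7 counts, but not in SCaBER, at 100 and 84. The 2 ZBED2 siRNAs averaged here were unequal in SCaBER. Averaged over the 10 genes, siZBED2-1 alone lay 0.53 and 0.64 below the siControl mean, and siZBED2-2 alone 0.12 and 0.34. ZBED2 had 12 and 40 counts under siZBED2-1 and 48 and 100 under siZBED2-2, against 101 and 96 under siControl.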

How the results depend on the processing

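Of 2500 alternative values of single genes, 0 reversed a call. RLE factors, library size alone and DESeq2 moved the calls of 1, 8 and 6 of 210 values, no filter on low counts 12 and limma on TPM 39. Counts of the 10 licensing genes called changed over 1.5 times as follows. With limma on TPM, siZBED2-1 against siControl gave 0 in RT112 and 1 in SCaBER, siZBED2-1 against siZBED2-2 0 in both lines, siFOXA1 on siZBED2-1 1 and on siZBED2-2 2 in RT112, siZBED2-1 added to siFOXA1 in RT112 0, siZBED2-2 added to siFOXA1 in SCaBER 1, and the SCaBER interaction 0; siFOXA1 against siControl kept 10 in SCaBER and 5 in RT112. The SCaBER interaction gave 8 with DESeq2. With no filter, siZBED2-1 against siZBED2-2 in RT112 gave 6. With the replicate block this comparison gave 6 and siZBED2-1 against siControl in RT112 7; beyond the calls named with the results, the replicate block changed no other call.

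With single libraries left out, the counts in RT112 ran from 1 to 8 for siFOXA1, 1 to 3 for siZBED2-1, 0 to 4 for siZBED2-1 against siZBED2-2, 3 to 7 and 1 to 4 for siFOXA1 on siZBED2-1 and siZBED2-2, 0 to 5 and 0 to 1 for siZBED2-1 and siZBED2-2 added to siFOXA1, and 0 to 1 for the interaction. In SCaBER they ran from 8 to 9 for siFOXA1, 0 to 3 for siZBED2-1, 0 to 2 for siZBED2-1 against siZBED2-2, 0 to 1 and 2 to 7 for siZBED2-1 and siZBED2-2 added to siFOXA1, and 2 to 7 for the interaction.

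Over all genes, limma on TPM called fewer in RT112 (1908 for siFOXA1 against 3084 by edgeR, 278 against 1167 for siZBED2-1, 6 against 22 for siZBED2-2, 277 against 1031 between the ZBED2 siRNAs, 278 against 1366 and 378 against 1165 for siFOXA1 on them, 3 against 338 and 4 against 166 for them on siFOXA1, 3 against 81 for the interaction) and in SCaBER (232 against 610, 6 against 82, 173 against 527, 198 against 759, 73 against 398, 104 against 359, 156 against 480 and 19 against 300 for the same comparisons in the same order, without siFOXA1 against siControl). In RT112 siZBED2-2, siZBED2-2 on siFOXA1 and the interaction gave 58, 324 and 224 with no filter, 44, 336 and 212 with the replicate block and 66, 331 and 248 with DESeq2. The block gave 552 for siZBED2-1 on siFOXA1 in RT112, and 125, 641 and 508 for siZBED2-2, siFOXA1 on siZBED2-2 and the interaction in SCaBER. The difference of the siFOXA1 change between lines gave 597 with the block, 915 with DESeq2 and 206 with limma, against 382, and that of the interactions 1 with library size alone, 33 with no filter, 8 with the block, 37 with DESeq2 and 6 with limma, against 2. With library size alone the median of all genes was -0.111 for RT112 siFOXA1, and the share of calls that were higher went from 47.5% to 32.9% and from 50.6% to 33.3% for siFOXA1 on siZBED2-1 and siZBED2-2 and from 71.7% to 85.8% for siZBED2-2 on siFOXA1 in RT112, and from 47% to 59.9% for the SCaBER interaction. With limma on TPM the median of all genes was -0.26 and -0.117 for siFOXA1 in RT112 and SCaBER, and 17.9% and 31.6% of calls were higher, against 48.6% and 48.9%. With 2 libraries per group, a single library decides many calls, and a change that was not called may still be present.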
